A study of Mus musculus with 4 samples.

Results

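The small leucine-rich proteoglycans of the extracellular matrix were followed here through 8 genes, Dcn, Bgn, Aspn, Fmod, Lum, Omd, Prelp and Ogn. All 8 were on the array, read by 19 of its 45101 probe sets, and they are 8 of the 18193 genes that a probe set with a single gene symbol names. The members were listed by name with earlier results of these arrays known. The main probe set of each gene was chosen by its mean level over the 4 arrays, the highest standing for the gene. The other probe sets of each gene are given beside it.

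The levels are those of total RNA from SVEC4-10, a mouse endothelial cell line transformed with SV40, on 4 expression arrays with 1 array in each group. The untreated cells had received no vector. The vector cells carried an insert-free lentiviral vector of the pLENTI6/Block-iT kind, and the other groups carried that vector with a short hairpin RNA directed at Mical2 or at Mical3. Transduced cells, including the vector control, were selected with blasticidin, the untreated cells were not transduced, and no group carried a non-targeting hairpin. Each array held a pool of 3 biological replicates, which hides the variation among the replicates, so nothing could be tested and p-values are not given.

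Small leucine-rich proteoglycans are secreted proteins built from a row of leucine-rich repeats, most of which carry sugar chains. They bind collagen fibrils and set how the fibrils grow and pack, and several bind growth factors such as TGF-beta. Decorin and biglycan carry chondroitin or dermatan sulfate chains and also signal to cells, decorin by binding growth factor receptors and biglycan by binding Toll-like receptors. In blood vessels, decorin is known as a matrix signal that restrains vessel sprouting in many settings, and biglycan is a component of the vessel wall.

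Values below are log2 expression levels or differences between such levels, 1 unit being 2-fold. A gene was called higher or lower when it differed by at least 2-fold and the highest of the compared levels reached 5.41, the median of the whole table, used as a floor. For a call on a hairpin array both controls were needed, each departing by that much and the same way. The number of arrays limits the precision. As a technical yardstick, the differences that probe sets of 1 gene gave had a pooled SD between 0.25 and 0.38, depending on the pair of arrays, over 5198 genes with several probe sets. This SD compares probe sets on the same arrays, so it leaves out variation between arrays, pools or cultures.

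The arrays had nearly equal medians, from 5.40 to 5.44. Both probe sets of Mical2 read 5.53 where the label says Mical2 knock-down. They read 4.64 and 5.14 for vector cells, and 5.33 and 5.60 for untreated cells. The label Mical3 knock-down went with a Mical3 level of 7.24, while vector cells were at 7.29 and untreated cells at 7.39. Neither targeted transcript was lower by 2-fold on the array of its hairpin, so the labels were not borne out at the transcript level. Both hairpin arrays are therefore named by label only. The Mical2 levels lay near the floor, where differences are understated, so a loss of Mical2 may not show. Both Mical2 probe sets read highest on the Mical3-labelled array, up to 6.08. Mical3 was lowest on the Mical2-labelled array, at 6.83, short of 2-fold below any other array. A direction given for a hairpin array describes the array that bears the label. Of 14 endothelial markers 9 lay below the floor on all 4 arrays, among them Pecam1 (3.46 to 3.88) and Cdh5 (3.95 to 4.50), while Eng was at 7.31 to 7.58. The summed level of that list, taken as log2 of the sum of linear levels, lay between 9.39 and 9.41 on the 4 arrays. Of 4 lymphatic endothelial markers, Lyve1 and Prox1 lay below the floor on every array. Pdpn was at 11.67 or above and was called in no comparison. Flt4 was at 9.18 on the untreated array, 8.9 on the vector array, 7.66 on the Mical2-labelled array and 7.55 on the Mical3-labelled array. It was called lower on both hairpin arrays against both controls, but not on its other probe set.

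The 8 genes did not share 1 pattern. Biglycan varied by less than 2-fold over the 4 arrays. Decorin was low on the vector array alone. Fibromodulin was highest on the untreated array, intermediate on the Mical2-labelled array and near or below the floor on the vector array and the Mical3-labelled array. Osteoglycin and osteomodulin were lowest on the Mical3-labelled array, and asporin was highest on the Mical2-labelled array, where 1 of its 2 probe sets passed the floor. Lumican stayed below the floor, and PRELP did not stand clear of it on any array.

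**Figure D1:**
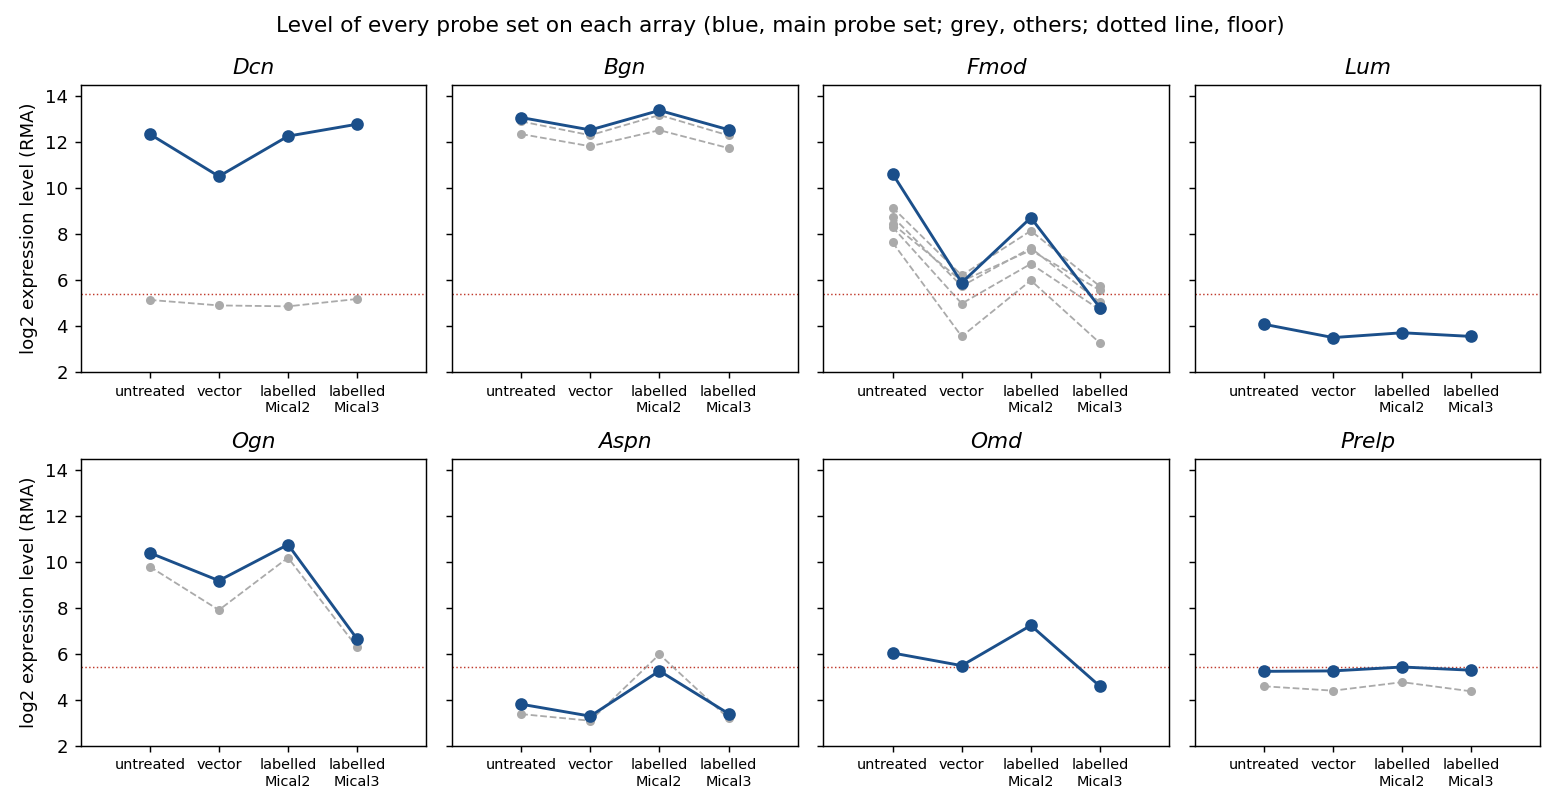
Log2 expression level (vertical axis) of all 19 probe sets on the untreated, vector, labelled Mical2 and labelled Mical3 arrays (horizontal axis), 1 panel per gene, with the main probe set in blue, the other probe sets in grey and the floor of 5.41 as a dotted line. There are no error bars because each group has 1 array. The 6 Fmod probe sets run in parallel, Dcn dips on the vector array, and Ogn drops to 6.65 on the Mical3-labelled array.

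Decorin was read by its main probe set, 1449368_at, at 12.36 on the untreated array, 10.52 on the vector array, 12.27 on the Mical2-labelled array and 12.79 on the Mical3-labelled array. The vector array was thus the low one, 3.58-fold below the untreated array, and the other 3 arrays lay within 2-fold of each other, so their order is not resolved. Against the vector array, decorin was higher by 1.75 on the Mical2-labelled array and by 2.27 on the Mical3-labelled array. Against the untreated array the same arrays differed by -0.09 and 0.43, so decorin was called in neither comparison that needs both controls. The other Dcn probe set, 1441506_at, lay between 4.86 and 5.18, below the floor on every array, and gave no sign of the dip.

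Biglycan was read by 3 probe sets that gave the same picture. The main one, 1416405_at, was at 13.08 on the untreated array, 12.54 on the vector array, 13.39 on the Mical2-labelled array and 12.55 on the Mical3-labelled array. The untreated array and the Mical2-labelled array were the higher pair. The whole range was 0.85 for this probe set, 0.89 for 1448323_a_at and 0.78 for 1437889_x_at, all short of 2-fold, and biglycan was called in no comparison.

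Asporin, a relative of decorin without a glycosaminoglycan chain, was below the floor on 3 arrays by both of its probe sets. Its main probe set, 1416652_at, read 3.81 on the untreated array, 3.29 on the vector array, 5.26 on the Mical2-labelled array and 3.40 on the Mical3-labelled array. All of these are below the floor, so asporin was not called. The other probe set, 1448421_s_at, read 3.38, 3.09, 5.98 and 3.19 in the same order. On it the Mical2-labelled array was above the floor and higher by 2.60 than the untreated array and by 2.89 than the vector array. This probe set is of a kind that can bind several transcripts, and the asporin probe sets have nearly equal means, 3.94 and 3.91, so the choice of the main one decides the call.

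Fibromodulin, which binds collagen and is known to slow fibril thickening, had the widest range of the 8 genes. Its main probe set, 1456084_x_at, was at 10.63 on the untreated array, 5.89 on the vector array, 8.72 on the Mical2-labelled array and 4.80 on the Mical3-labelled array. Vector cells were 26.7-fold below untreated cells on this probe set. The Mical2-labelled array lay between them, 7.11-fold above the vector array and 3.76-fold below the untreated array. The Mical3-labelled array was below the floor, lower than the untreated array by 5.83 units.

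The main Fmod probe set can cross-hybridise with other transcripts, so its other probe sets matter. On 1415939_at, the only one of the 6 without that mark, Fmod stood at 8.31 on the untreated array, 4.98 on the vector array, 6.71 on the Mical2-labelled array and 4.71 on the Mical3-labelled array. All 6 probe sets put the untreated array highest, the Mical2-labelled array next, then the vector array, and the Mical3-labelled array lowest. The drop from untreated to vector ran from 2.49 to 4.74 over the 6, and the excess of the Mical2-labelled array over the vector array from 1.34 to 2.83. The step from the vector array to the Mical3-labelled array was smaller, from -0.27 to -1.09, and passed 2-fold on the main probe set only. With levels near or below the floor on both of those arrays, their order is not resolved.

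Lumican, read by 1423607_at alone, was at 4.08 on the untreated array, 3.50 on the vector array, 3.71 on the Mical2-labelled array and 3.55 on the Mical3-labelled array. All are below the floor, and no change can be read from them. PRELP, a heparin-binding member, was at 5.24, 5.26, 5.43 and 5.29 in the same order on 1416322_at, a range of 0.19, and its other probe set stayed between 4.37 and 4.77. No difference in either gene was detectable on these arrays.

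Omd, Ogn and Aspn are neighbours. In the RefSeq gene order of mouse assembly GRCm38.p6 they follow each other on chromosome 13 as Ecm2, Aspn, Omd, Ogn and Nol8. Osteomodulin, a keratan sulfate proteoglycan best known from bone, was read by 1 probe set, 1418745_at, at 6.04 on the untreated array, 5.49 on the vector array, 7.24 on the Mical2-labelled array and 4.59 on the Mical3-labelled array. The Mical2-labelled array was the high one, above the untreated array by 1.20 and above the vector array by 1.75. The Mical3-labelled array was below the floor, lower than the untreated array by 1.45 and than the vector array by 0.90.

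Osteoglycin, also called mimecan, is a small member found in the matrix of vessel walls and bone. Its main probe set, 1419663_at, was at 10.40 on the untreated array, 9.19 on the vector array, 10.76 on the Mical2-labelled array and 6.65 on the Mical3-labelled array. The Mical3-labelled array was the low one, 13.5-fold below the untreated array and 5.82-fold below the vector array. On the other probe set, 1419662_at, Ogn read 9.80, 7.91, 10.19 and 6.29 in the same order, with the same order of arrays. The untreated array and the Mical2-labelled array differed by 0.36 and 0.39 on the 2 probe sets, short of 2-fold.

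The genes at the ends of this stretch did not vary as Ogn did. Ecm2, which encodes another leucine-rich matrix protein, was below the floor throughout, from 3.48 to 3.88. Nol8, a nucleolar protein gene, was at 9.06 on the untreated array, 9.06 on the vector array, 9.05 on the Mical2-labelled array and 9.63 on the Mical3-labelled array. Lum lies next to Dcn on chromosome 10 and stayed below the floor. Prelp lies next to Fmod on chromosome 1 and did not vary by 2-fold, and Btg2 on the other side of Fmod ran from 9.50 to 10.42.

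The promoters of the 3 neighbours and of Fmod, the gene with the widest range, are shown because the neighbours can be set side by side with the member that varied most. Each run is 300 bases of RefSeq sequence, build GRCm38.p6, from 250 bases before the annotated start, given 5′ to 3′ on the strand of the gene. Of the 8 members, 6 matched the promoter table. Dcn and Lum had no entry. Capitals mark matches to 5 motifs, searched on either strand. The basal promoter motif is TATAAA, bound by the TBP protein. The motif of TEAD factors is CATTCC, known as MCAT. The motif of SMAD proteins is CAGAC, and that of the AP-1 factors is TGANTCA. The last is the CArG box, bound by SRF.
Aspn, chr13:49544193-49544492, plus strand: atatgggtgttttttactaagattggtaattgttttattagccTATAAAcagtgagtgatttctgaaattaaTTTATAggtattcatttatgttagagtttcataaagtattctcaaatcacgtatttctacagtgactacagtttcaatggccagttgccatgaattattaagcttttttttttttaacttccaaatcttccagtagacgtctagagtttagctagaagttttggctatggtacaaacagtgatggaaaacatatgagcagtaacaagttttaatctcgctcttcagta
Omd, chr13:49582212-49582511, plus strand: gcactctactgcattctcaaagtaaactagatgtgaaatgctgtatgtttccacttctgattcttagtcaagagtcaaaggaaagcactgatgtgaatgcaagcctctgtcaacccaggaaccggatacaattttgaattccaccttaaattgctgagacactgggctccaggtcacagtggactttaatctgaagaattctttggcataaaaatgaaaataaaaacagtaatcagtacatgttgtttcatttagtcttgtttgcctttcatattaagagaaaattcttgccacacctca
Ogn, chr13:49607765-49608064, plus strand: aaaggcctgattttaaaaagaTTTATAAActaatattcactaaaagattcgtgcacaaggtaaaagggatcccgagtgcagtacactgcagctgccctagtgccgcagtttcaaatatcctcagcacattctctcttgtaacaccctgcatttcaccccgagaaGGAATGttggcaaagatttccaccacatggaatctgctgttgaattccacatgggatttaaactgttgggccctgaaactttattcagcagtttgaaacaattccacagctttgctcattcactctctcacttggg
Fmod, chr1:134037004-134037303, plus strand: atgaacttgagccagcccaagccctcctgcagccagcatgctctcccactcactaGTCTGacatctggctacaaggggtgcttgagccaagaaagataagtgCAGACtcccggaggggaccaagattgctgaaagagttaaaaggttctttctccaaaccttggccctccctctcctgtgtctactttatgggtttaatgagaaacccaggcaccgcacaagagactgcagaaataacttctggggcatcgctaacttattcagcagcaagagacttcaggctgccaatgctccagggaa
In these runs the Ogn promoter held an MCAT match at positions -86 to -81, counted with the annotated start as 0, and overlapping TATA matches on both strands from -229 to -222. The Aspn promoter held TATA matches at -207 to -202 and at -178 to -173, and the Fmod promoter SMAD matches at -195 to -191 and -148 to -144. The Omd promoter held no match to any of the 5 motifs. Over all 32851 promoters in the table, TATAAA was present in 13.6%, CATTCC in 14.7%, CAGAC in 49.6%, TGANTCA in 7.81% and the CArG box in 1.63%. A match is only a string of letters, and a run without one says only that these letters are not in this window.

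Comparing cells that carry the empty vector with untreated cells shows what differed with transduction and selection. Called lower were 3 of the 8 proteoglycans, Dcn, Fmod and Ogn, and none was called higher. Over all genes, 2.57% of the 11849 at or above the floor were called lower and 3.26% higher. The members were chosen with these arrays in view, so nothing is read from that contrast. Of the 8, 5 reached the floor in this comparison. The median difference of the 8 was -0.57, against 0.02 over all 18193 genes.

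Against both controls, the Mical2-labelled array had 1 of the 8 genes called higher, Omd, and none lower, where 0.977% of 12072 genes were called higher and 1.75% lower. The median of the 8 differences was 1.66 with the vector as control and 0.25 with untreated cells as control. The controls thus gave different pictures. Against the vector array alone Dcn, Fmod, Ogn and Omd were called higher, 4 of 8, where 3.82% of all genes at the floor were. Against the untreated array alone Omd was called higher and Fmod lower, with 1.44% and 2.44% of genes in those directions.

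The Mical3-labelled array had 2 of the 8 called lower against both controls, Fmod and Ogn, and none higher, where 2.49% of 12011 genes were called lower and 1.38% higher. The Fmod call is lost on each of its other 5 probe sets, and Ogn was called on both of its own. The median was 0.02 with the vector as control and -0.53 with untreated cells as control. Against the vector array alone Dcn was called higher, with 4.64% of all genes, and Fmod and Ogn lower, with 7.13%. Against the untreated array alone Fmod, Ogn and Omd were called lower, with 3.72% of all genes. These comparisons share control arrays and are set side by side only.

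Between the hairpin arrays, with no control shared, Fmod, Ogn and Omd were called higher on the Mical2-labelled array, 3 of 8, and none lower. Over all genes, 3.81% of 11928 were called higher there and 3.72% lower. The differences were 3.92 for Fmod, 4.11 for Ogn and 2.65 for Omd, against -0.52 for Dcn and 0.84 for Bgn. Decorin was the 1 gene of the 8 whose main probe set read higher on the Mical3-labelled array, by less than 2-fold.

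**Figure D2:**
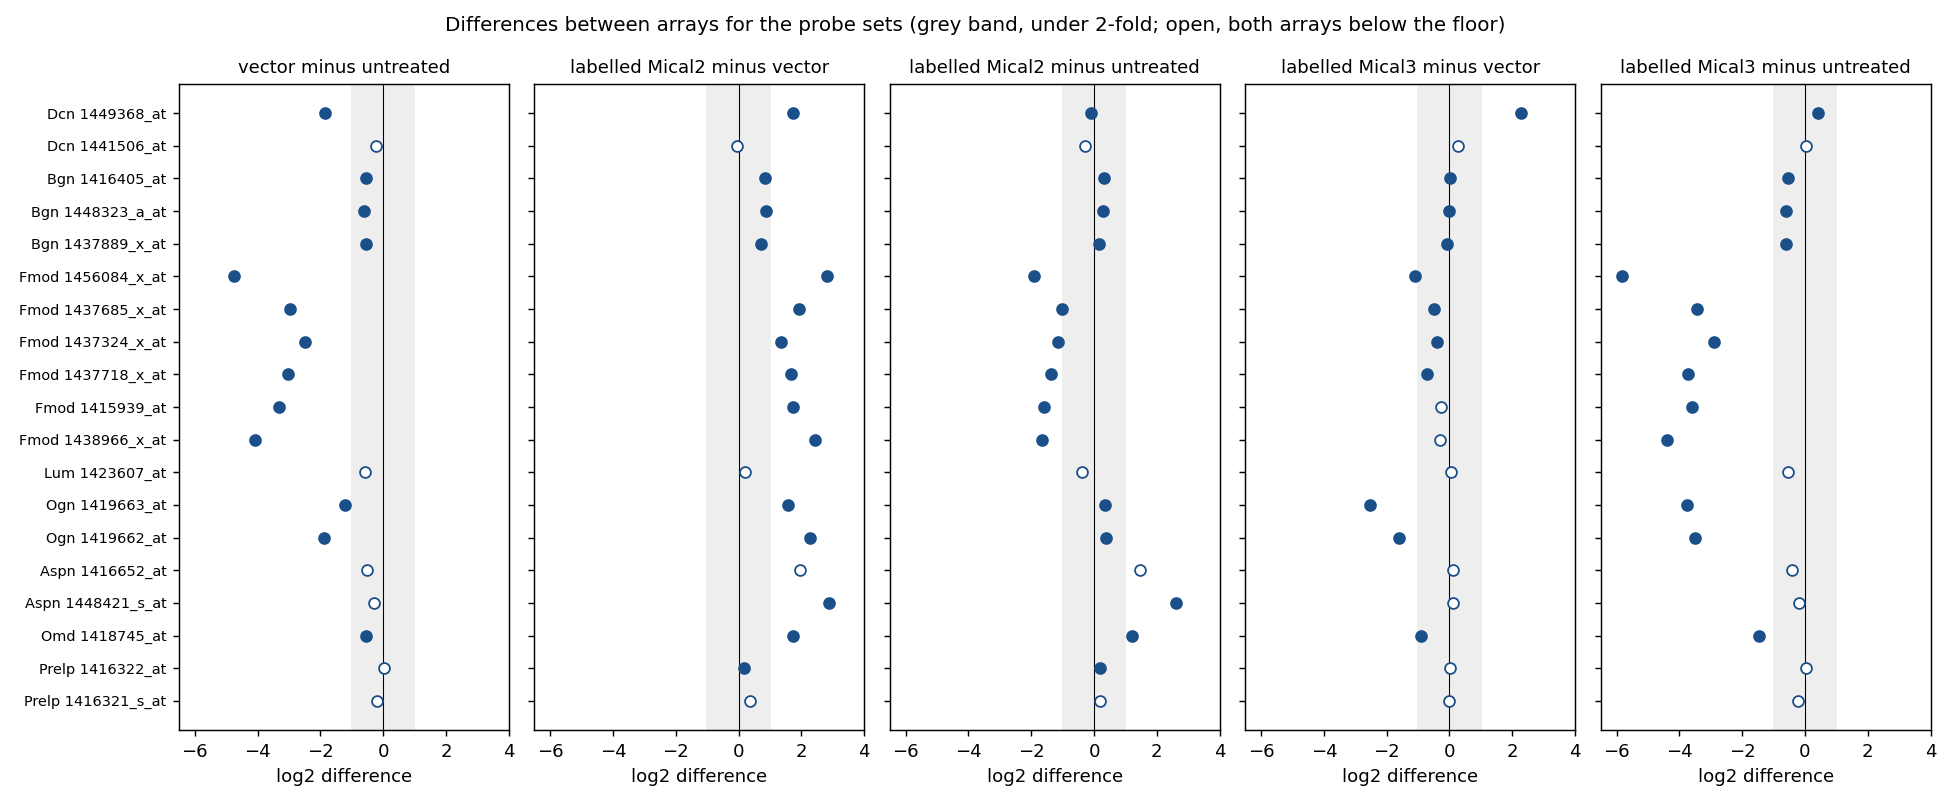
Log2 differences (horizontal axis) between pairs of arrays for each of the 19 probe sets (rows), 1 panel per pair, with the grey band marking less than 2-fold and open circles marking probe sets below the floor on both arrays. Without replicates there are no error bars. All 6 Fmod probe sets lie left of the band for vector minus untreated and right of it for labelled Mical2 minus vector.

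Other measures moved along with these genes. The summed level of 12 fibroblast and mesenchymal markers was 15.5 on the untreated array, 13.0 on the vector array, 15.2 on the Mical2-labelled array and 12.3 on the Mical3-labelled array. Fmod and Ogn were also higher on the untreated array and the Mical2-labelled array than on the other arrays. From untreated to vector cells 6 of the 12 were called lower and none higher, where 2.57% of all genes were lower and 3.26% higher. Against both controls 4 were called lower on the Mical3-labelled array and none higher, where 2.49% of all genes were lower and 1.38% higher. Of the 12 markers, 8 reached the floor on each array, and Thy1, Fap and Tcf21 stayed below it on all 4. Pdgfra, a growth factor receptor of mesenchymal cells, read 10.40, 6.16, 9.88 and 7.07 in the order of arrays above. Not all of the list moved so. Twist2 was at 9.70, 10.00, 10.23 and 6.09 in that order, with no drop on the vector array, and Twist1 stayed between 8.30 and 8.88. The summed level rests mostly on 3 collagen genes that are also in the lists below. These are Col1a1, Col1a2 and Col3a1, at 12.99, 14.49 and 13.29 on the untreated array. The part of the marker list in the levels of the proteoglycans was not tested. In pooled bulk RNA, fewer cells of a type and less RNA per cell cannot be told apart.

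The summed level of 8 smooth muscle and pericyte markers was 13.8 on the untreated array, 11.8 on the vector array, 14.0 on the Mical2-labelled array and 15.1 on the Mical3-labelled array. It was lowest on the vector array, as Dcn was. From untreated to vector cells 2 of the 8 were called lower, Acta2 and Tagln, and none higher. Over all genes, 2.57% were lower and 3.26% higher. Notch3, Des and Cspg4 went the other way, higher on the vector array by 0.94, 0.16 and 0.03, short of 2-fold. The median difference of the list was 0.025, so its low sum on the vector array is not shared by most of its genes. Acta2 is the brightest gene of this list on every array, and Myh11, Cnn1 and Rgs5 lay below the floor on every array. The part of this list in the Dcn levels was not tested either. The 8 markers of cartilage, tendon and bone summed to 8.47 to 8.79, with Ibsp and Tnmd below the floor throughout. Leukocyte markers summed to 8.20 to 9.02, highest on the vector array, with Ptprc below the floor throughout. Cd68 alone of that list was called between vector and untreated cells, higher by 2.07 on the vector array. Epithelial markers summed to 8.27 to 9.68, lowest on the vector array, with Cdh1 below the floor throughout. Krt8 and Krt18 were called lower there than on the untreated array, at -1.85 and -1.01. Against both controls Krt14 was called higher on the Mical2-labelled array and Krt18 on the Mical3-labelled array, as 0.977% and 1.38% of all genes were. Other Krt14 probe sets were not called.

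The partners of these proteoglycans were described from lists of genes. Like the members, these lists were chosen with earlier results of these arrays known, so their counts are descriptions only. Of 8 other small leucine-rich proteoglycan genes measured, none was called in any comparison. Kera, Epyc, Optc, Chad, Nyx and Ecm2 stayed below the floor on every array, while Podn was at 7.24 to 7.51 and Chadl at 6.0 to 6.65. Podn, the gene of podocan, thus varied by less than 2-fold over the 4 arrays.

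Fibrillar collagens, the fibrils that these proteins coat, were lower on the vector array than on the untreated array for 5 of 11 genes, with none higher and a median of -0.90, where 2.57% of all genes were lower and 3.26% higher. Of the 11, 7 reached the floor. Those lower were Col1a1, Col1a2, Col3a1, Col5a1 and Col5a2. Col3a1, the chain of type III collagen, was at 13.29 on the untreated array, 10.30 on the vector array, 13.25 on the Mical2-labelled array and 10.79 on the Mical3-labelled array. Col5a2, a chain of the type V collagen that starts fibrils, was at 13.92, 12.66, 13.78 and 13.69 in the same order, low on the vector array alone as Dcn was. Against both controls only Col5a3 was called lower on the Mical2-labelled array and only Col1a2 on the Mical3-labelled array. Of all genes, 1.75% and 2.49% were lower on those arrays. Col1a2, a chain of type I collagen, was at 14.49 on the untreated array, 11.64 on the vector array, 14.06 on the Mical2-labelled array and 6.19 on the Mical3-labelled array. On this probe set the Mical3-labelled array was the low one, and a further probe set, 1423110_at, read 13.56, 9.52, 12.98 and 3.75 in the same order. On the third, 1446326_at, Col1a2 read 6.11, 3.74, 5.50 and 3.94, with the vector array as low as the Mical3-labelled array, and it was not called against both controls.

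Of 14 fibril-associated and microfibril genes, 4 were lower on the vector array than on the untreated array, Col12a1, Col6a1, Col6a2 and Fbn2. None was higher, where 2.57% of all genes were lower and 3.26% higher. Col12a1, a collagen that sits on fibril surfaces, was at 9.18 on the untreated array, 6.67 on the vector array, 8.95 on the Mical2-labelled array and 6.38 on the Mical3-labelled array. Another Col12a1 probe set, 1427391_a_at, had a smaller drop, from 7.02 to 6.17 on the vector array. Col6a3 was called higher on the Mical2-labelled array against both controls, where 0.977% of all genes were. Dpt, dermatopontin, a decorin-binding matrix protein, was called lower on the Mical3-labelled array (6.66, 7.05, 6.13 and 5.01 in the same order). Of all genes, 2.49% were lower there against both controls.

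Calls among the enzymes that build the sugar chains depended on the comparison. Of 22 genes for the linkage region and for chondroitin or dermatan sulfate, none was called against both controls on the Mical2-labelled array. Between the hairpin arrays 5 of the 22 were higher on the Mical2-labelled array, Pxylp1, Dsel, Chst7, Chst11 and Chst15, and none lower, where 3.81% of all genes were higher. Against the vector array alone, 5 of the 22 were lower and 1 higher on the Mical3-labelled array, where 7.13% and 4.64% of all genes were. Chst7 and Chst11, sulfotransferases of chondroitin, were called lower on the Mical3-labelled array against both controls, where 2.49% of all genes were. Chst11 was at 7.77 on the untreated array, 7.64 on the vector array, 7.73 on the Mical2-labelled array and 5.04 on the Mical3-labelled array, and its other probe set was below the floor. Dse, the epimerase that makes dermatan sulfate, was at 9.23, 8.02, 9.24 and 8.66 in the same order and was called lower on the vector array. Pxylp1, a phosphatase of the linkage region, was called higher there, at 10.20 against 8.92 on the untreated array. Of all genes, 2.57% were lower on the vector array and 3.26% higher.

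In the keratan sulfate list of 9 genes, Chst1 and Chst2 were called higher on the Mical2-labelled array than on the Mical3-labelled array, and none lower. Over all genes, 3.81% were higher in that comparison and 3.72% lower. The sulfotransferase gene Chst1 was at 7.34 on the untreated array, 8.74 on the vector array, 8.61 on the Mical2-labelled array and 6.28 on the Mical3-labelled array. It was called higher on the vector array and lower on the Mical3-labelled array against both controls, as 3.26% and 2.49% of all genes were. Chst2, another sulfotransferase gene, was at 5.97, 4.89, 6.34 and 4.33 in the same order, the same order of arrays as Ogn and Omd. Its other probe sets stayed below the floor.

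Of 11 processing proteases and their helpers, Pcolce2 and Mmp2 were called higher on the Mical2-labelled array and Pcolce lower on the Mical3-labelled array. These calls are against both controls, where 0.977% of all genes were higher on the Mical2-labelled array and 2.49% lower on the Mical3-labelled array. Pcolce2, an enhancer of procollagen processing, was at 10.15 on the untreated array, 9.47 on the vector array, 11.86 on the Mical2-labelled array and 8.69 on the Mical3-labelled array, ordered as Ogn and Omd were. Mmp2, a gelatinase gene, fell short of the call on its other probe set. Adamts5, a protease that cuts proteoglycans, was at 9.65, 6.95, 9.77 and 10.19 in the same order. It was low on the vector array alone, like Dcn, and 2 further probe sets gave the same order of vector below the rest.

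Among 12 genes of TGF-beta ligands, receptors and latency proteins, Ltbp1, which holds TGF-beta in the matrix, was the 1 called against both controls. It was lower on the Mical3-labelled array, at 6.64 against 9.73 on the untreated array, 8.94 on the vector array and 9.86 on the Mical2-labelled array, and its other probe sets lay below the floor. Against both controls 2.49% of all genes were lower on the Mical3-labelled array. Inhba, the gene of an activin subunit, was called lower on the vector array (8.74, against 9.92) and Tgfb1 higher (6.26, against 5.24). Of all genes, 2.57% were lower there and 3.26% higher. Of 15 genes for receptors and co-receptors bound by decorin, biglycan or lumican, the innate immune receptor genes Tlr2 and Cd14 were called higher on the Mical2-labelled array and Insr lower, while Lrp1, an endocytic receptor, was called lower on the Mical3-labelled array. Lrp1 was not called on its other probe set. For these receptor calls, made against both controls, 0.977% of all genes were higher and 1.75% lower on the Mical2-labelled array. On the Mical3-labelled array 2.49% were lower. Cd14 was at 7.04, 5.75, 8.26 and 6.39 on the untreated, vector, labelled Mical2 and labelled Mical3 arrays. Egfr and Met, receptors bound by decorin, were called in no comparison.

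**Figure D3:**
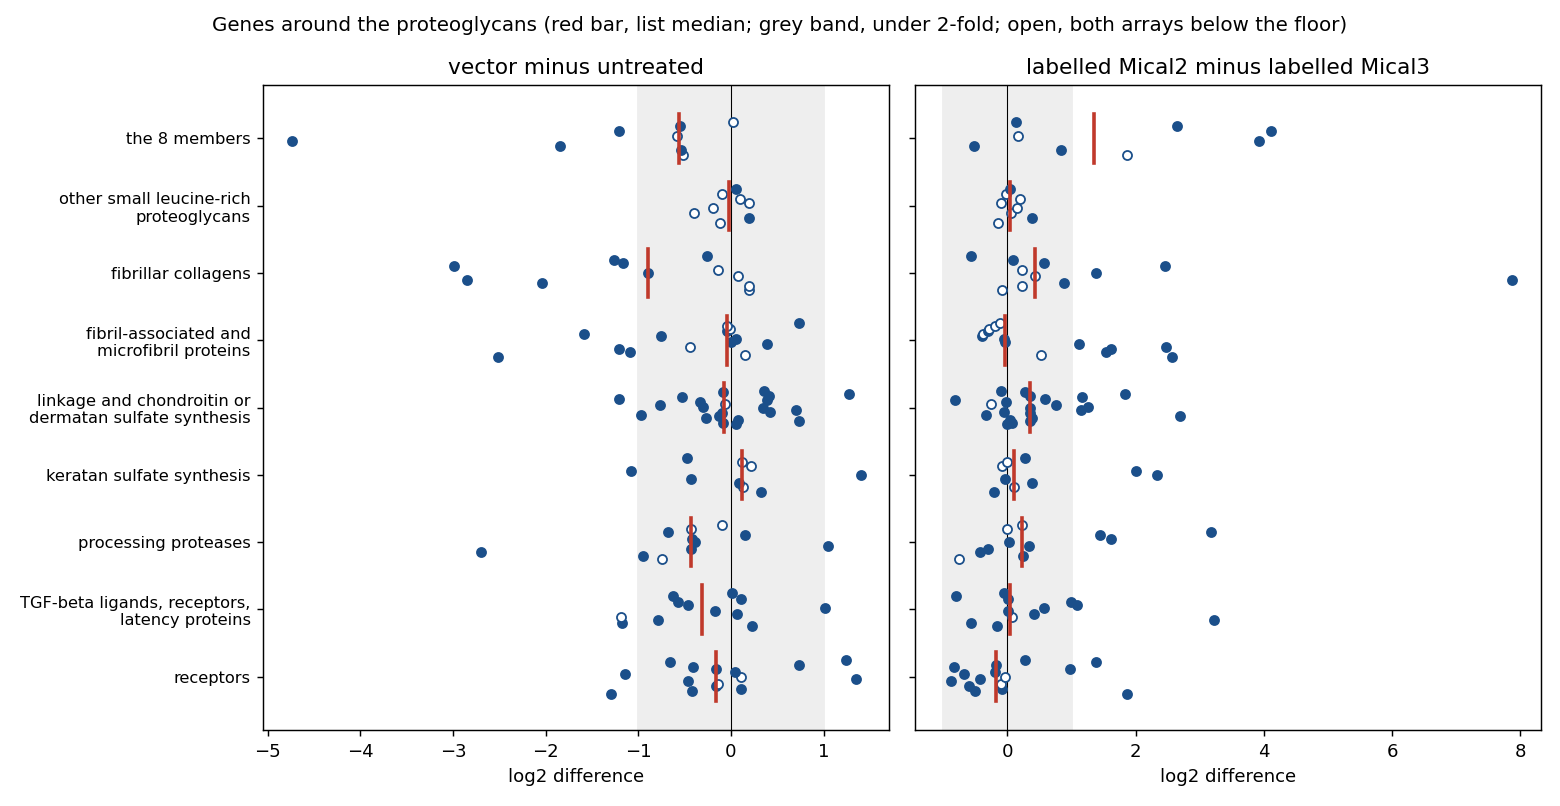
Log2 differences (horizontal axis) of the members and of 8 companion lists (rows) for vector minus untreated and for the Mical2-labelled array minus the Mical3-labelled array, with 1 circle per gene, red bars for list medians, a grey band for less than 2-fold and open circles for genes below the floor on both arrays. The fibrillar collagens have the lowest list median for vector minus untreated, -0.90, and the members the highest for the hairpin arrays, 1.35.

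For each member that ranged over at least 2 units, the genes of most similar profile were those with the smallest root mean square difference over the 4 arrays after each gene was centred on its own mean. For Dcn these were Ddah1, an enzyme gene of nitric oxide control, at 0.033, Edn1, the gene of endothelin, at 0.038, and Acyp2 at 0.066. Edn1 was at 8.46 on the untreated array, 6.61 on the vector array, 8.44 on the Mical2-labelled array and 8.96 on the Mical3-labelled array. For Omd they were Spon2 at 0.045, Rasl11a at 0.17 and Klhl29 at 0.18, and Spon2, a secreted matrix protein gene, read 7.53, 7.09, 8.79 and 6.19 in the same order.

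For Ogn the nearest were Ak4 at 0.30, Ptgs2 at 0.30 and Grem1 at 0.35. Grem1, the gene of a BMP antagonist, was at 10.27 on the untreated array, 8.35 on the vector array, 10.77 on the Mical2-labelled array and 6.03 on the Mical3-labelled array. Fmod had no close match. Postn, the gene of the matrix protein periostin, was nearest at 0.77, followed by Adam12 at 0.79 and the mesenchymal transcription factor gene Prrx1 at 0.95. Postn read 8.92, 5.56, 8.32 and 5.22 in the same order. These are descriptions over 4 arrays, with many genes to choose from.

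**Figure D4:**
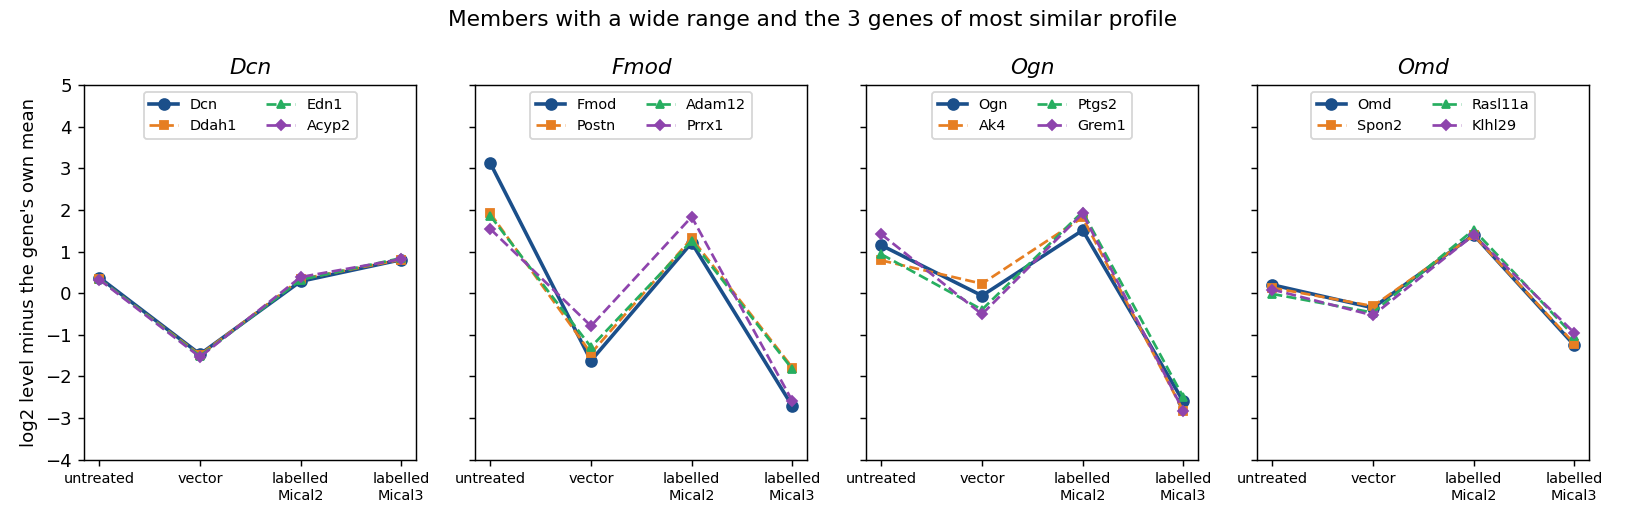
Log2 level minus the gene's own mean (vertical axis) on the 4 arrays (horizontal axis) for Dcn, Fmod, Ogn and Omd in blue and, dashed, the 3 genes of most similar profile for each. The profiles near Dcn lie within 0.066 of it by root mean square difference, and those near Fmod no closer than 0.77.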

How the data were processed

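Each array was hybridised with biotin-labelled complementary RNA of a pool of 3 biological replicates, per the labels. The authors deposited a log2 level for every probe set on every array, computed with RMA per the submitters' processing notes, with the version and settings not given in the sources used here. RMA compresses differences near background, so those of dim genes are understated. The deposited values were used unscaled. Of 45101 probe sets, 34945 have 1 gene symbol in the platform annotation, updated by Entrez identifier against a RefSeq table of GRCm38.p6 (34741 matched). The 932 that name several genes, and those that name none, were not used.

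With 1 array per group there was no test, and genes were called by size: at least 2-fold with the highest compared level at or above 5.41. Alternatives changed the control, the fold, the floor, the choice of probe set and the normalization. The members and lists were chosen with earlier results of these data known. The genes named are the members, called members of the lists and those with the largest differences, the 3 nearest profiles and the gene neighbours. Not every gene that this allows is printed. Software was Python 3.11.15 with pandas 2.3.3, numpy 2.4.6, matplotlib 3.10.9 and statsmodels 0.14.6.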

Additional observations from a re-analysis of the deposited data

Results flagged for a closer look

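In 3 genes the hairpin arrays departed from 1 of the controls in opposite directions, each by at least 2-fold on the main probe set, and in none of the 3 did this hold for both controls. Fmod differed from the vector array by 2.83 on the Mical2-labelled array and by -1.09 on the Mical3-labelled array. Against the untreated array Fmod was lower on both, at -1.91 and -5.83. For Ogn, with the vector array as control too, the differences were 1.57 and -2.54, and against the untreated array 0.36 and -3.75. Omd differed from the untreated array by 1.20 and -1.45, and from the vector array by 1.75 and -0.90. With 1 array per group the difference between the hairpin arrays was not tested. The drop of Fmod from the vector array to the Mical3-labelled array passed 2-fold on 1 of its 6 probe sets.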

How the results depend on the processing

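The count of members called between vector and untreated cells (3), and that between hairpin arrays (3), stayed within 1.5 times under every alternative run. The genes called were not always the same. Between vector and untreated cells Ogn was lost at a fold of 3. Between the hairpin arrays Omd was lost with the floor at the 75th percentile, Bgn was added at a fold of 1.5, and Aspn was added in others, such as no floor. For the Mical2-labelled array against both controls (1), the count was 0 at a fold of 3 and 0 with the floor at the 75th percentile. It was 2, with Aspn beside Omd, with no floor, with probe sets averaged per gene, with the probe set of highest variance, with 16 added on the linear scale and, an alternative chosen after seeing the data, with any probe set counted. It was 4 where only the vector array served as control and 2 where only the untreated array did. For the Mical3-labelled array against both controls (2), Fmod was lost and the count was 1 at a fold of 3 and with 16 added. The same held with the mean of probe sets and without probe sets open to cross-hybridisation. With the mean of the controls the count was 4, with Dcn higher and Fmod, Ogn and Omd lower. On the Mical2-labelled array the direction called for Fmod turned with the control, higher by 2.83 where only the vector array served and lower, at -1.91, where only the untreated array did. No paired analysis was possible because each group has 1 array, and for the same reason no replicate could be left out. Dim levels limit Lum, Prelp, Aspn and Omd.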
